A study of Mus musculus with 50 samples.

Results

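The comparison described here is the removal of the transcription factor gene Dux from mouse embryonic stem cells that lack 4 H3K9 methyltransferases. Cells labelled Dux-KO:G9a;Suv39h1/2;Setdb1-QKO (Dux-KO QKO below) were set against cells labelled G9a;Suv39h1/2;Setdb1-QKO (QKO below), with 2 libraries a group. A gene entered the comparison when it reached 1 TPM or more in at least 2 of these 4 libraries, which kept 13271 of the 24412 genes in the table. TPM is a level corrected for gene length and scaled to the same total in every library. The 11141 genes outside this rule included 5657 listed at 0 in all 4 libraries. Just inside the limit, Csdc2 had a second-highest value of 1.0004 TPM. Just outside it, Car8 had a second-highest value of 0.9999 TPM.

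All libraries came from TT2 mouse embryonic stem cells, cultured cells that keep the ability to form every lineage of the embryo. Both groups shared the loss of G9a (Ehmt2), Suv39h1, Suv39h2 and Setdb1, and both carried OHT in their titles. Where a line had libraries titled NT and OHT, the OHT label added Setdb1 to the genes lost. The labels do not explain OHT further. The QKO cells were titled 3S1G and the Dux-KO QKO cells 3S1Gx, with a library name that refers to gDux. The loss of Dux and any other difference between these lines cannot be told apart. Cells of the same strain titled 33-6 and NT, labelled control, gave a reference level from 2 further libraries. Levels in QKO and Dux-KO QKO set beside control therefore also differ in OHT against NT. A second table held Tet-on-Dux lines that were themselves Dux-KO, with 2 libraries for each line and dose. A QKO line (titled 3S1Gi and OHT) was without doxycycline or with doxycycline labelled 1. A control line (titled 33i and NT) was without it or with doxycycline labelled 0.2. The labels give no unit for these doses and do not say whether libraries came from separate cultures. Each p-value therefore rests on a spread between libraries of a group, estimated over all groups of a table, which may be technical.

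DUX is a double-homeobox transcription factor that is expressed for a short time in the mouse embryo around the early 2-cell stage. It binds promoters and MERVL retrotransposon repeats and switches on the genes of zygotic genome activation, among them the Zscan4, Usp17-like, Tcstv and Eif1a-like families. In embryonic stem cell cultures these genes are mostly silent and appear in a rare fraction of cells that resemble the 2-cell embryo. H3K9 methyltransferases place the repressive mark on histone H3 lysine 9 that keeps many repeats and germline genes silent.

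The core of the known DUX binding motif was looked for in the promoters of the genes in the comparison, as a description with no test. The letters searched were GATTNAATC, which read the same on both strands, in the 300 bases from 250 before to 50 after the start (RefSeq, GRCm38.p6). They were present for 8 of the 22 genes with a promoter entry that fell by 4 or more on the log2 scale (36.4%), for 9 of all 144 genes called lower with an entry (6.25%) and for none of 469 called higher. Over all 10054 genes of the comparison with an entry the share was 0.269%, and over the 27025 genes of the whole promoter table it was 0.307%. Some of the 9 genes shared a promoter sequence. With each sequence counted once, 5 of 19 held the motif among genes that fell by 4 or more (26.3%). Among all genes called lower 6 of 153 distinct sequences held it (3.92%), against 0.188% for all genes in the comparison. A match describes letters only, and genes without one may hold DUX sites elsewhere. Below are the 250 bases before the start of 3 of the genes that fell most and hold the motif, 5′ to 3′ on the gene's strand, with the motif in capitals. Gm13040 is a predicted gene on chromosome 4, Gm21293 one of the Eif1a-like genes on chromosome 10, and AF067061 a member of the Tcstv cluster on chromosome 13.
Gm13040, chr4:143535704-143535953, + strand: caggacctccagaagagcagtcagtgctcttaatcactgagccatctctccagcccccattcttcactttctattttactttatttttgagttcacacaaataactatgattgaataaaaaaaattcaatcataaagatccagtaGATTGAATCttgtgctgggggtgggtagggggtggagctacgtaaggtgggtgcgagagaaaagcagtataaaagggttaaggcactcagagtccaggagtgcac
Gm21293, chr10:104142737-104142986, + strand: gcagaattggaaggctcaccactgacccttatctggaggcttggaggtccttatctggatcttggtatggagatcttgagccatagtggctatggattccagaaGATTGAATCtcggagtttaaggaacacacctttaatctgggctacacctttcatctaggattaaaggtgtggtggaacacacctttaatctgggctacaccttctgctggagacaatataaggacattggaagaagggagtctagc
AF067061, chr13:120262845-120263094, + strand: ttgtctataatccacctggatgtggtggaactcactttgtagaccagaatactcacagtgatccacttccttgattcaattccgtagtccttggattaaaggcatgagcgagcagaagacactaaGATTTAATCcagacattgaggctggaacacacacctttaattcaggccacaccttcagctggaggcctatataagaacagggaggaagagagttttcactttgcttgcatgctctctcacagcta

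The motif began 105, 146 and 125 bases before the start in these promoters. Gm13057 had the same 250 bases as Gm13040, and the Eif1a-like genes Gm21304 and Gm8764 had the same 250 bases as Gm21293. Gm4340 differed from Gm21293 at 1 base. Gm13040 was at 151 and 162 TPM in QKO and at 0 and 2.15 TPM in Dux-KO QKO, and AF067061 at 45.1 and 58.9 TPM in QKO and listed at 0 in both Dux-KO QKO libraries. Gm21293 was at 1046 and 979 TPM in QKO and at 11.3 and 22.9 TPM in Dux-KO QKO. Among the 9 genes called lower that hold the motif, Esp24 had the smallest fall, at -2.08 on the log2 scale. Another 18 genes of the comparison that hold it were not called.

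Dux was the first gene checked. It was at 25.7 and 21.8 TPM in QKO and listed at 0 in both Dux-KO QKO libraries, beside 0.971 and 1.15 TPM in control. RefSeq lists a copy of Dux, as Duxf3, at chr10:58229505-58233089 (GRCm38.p6). Of the 5 measured genes on each side of it, 7 entered the comparison and none was called lower. Gcc2, 22.3 kb away, stood at 12.9 and 13.6 TPM in QKO and 13.7 and 13.4 TPM in Dux-KO QKO. Smpdl3a, 417.7 kb away, was called higher, with 1.06 and 0.789 TPM in QKO and 2.94 and 3.30 TPM in Dux-KO QKO. Of the other targeted genes none was called. Ehmt2 had 17.7 and 16.7 TPM in QKO and 14.2 and 12.4 TPM in Dux-KO QKO, against a control mean of 87.3 TPM. Suv39h1 had 11.5 and 11.1 TPM and 12.5 and 12.7 TPM, against a control mean of 32.8 TPM. Setdb1 was at 28.9 and 26.8 TPM and 36.5 and 33.7 TPM, against a control mean of 51.0 TPM. Suv39h2 had 13.3 and 16.2 TPM and 13.6 and 14.4 TPM, against a control mean of 20.9 TPM. All 4 were below control in each library of both groups. A whole-gene level does not check a deleted part.

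In Dux-KO QKO cells 251 genes were lower than in QKO cells and 649 were higher. A gene was called when limma's adjusted p was below 0.05 and the log2 fold change of TPM + 1, Dux-KO QKO minus QKO, was at least 1 in size. These were 1.89% and 4.89% of the genes tested, and 6696 genes had an unadjusted p below 0.05. The falls were larger than the rises. Of the genes called lower, 134 fell by 2 or more on the log2 scale, 46 by 4 or more and 27 by 5 or more, whereas 38 of the genes called higher rose by 2 or more and 4 by 3 or more. All 251 genes called lower and 647 of the 649 called higher had no overlap between the 2 groups' libraries. A call needs a difference that is large beside the spread, so this count adds no support of its own. The median log2 fold change of all genes was 0.23, so that part of the count of rises moves with the scaling. After scaling by median ratios the median was 0.04, and 400 genes were called higher and 332 lower, which puts the share of rises at 54.6% instead of 72.1%. Without QKO replicate 1 the count of genes called higher was 1000.

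**Figure D1:**
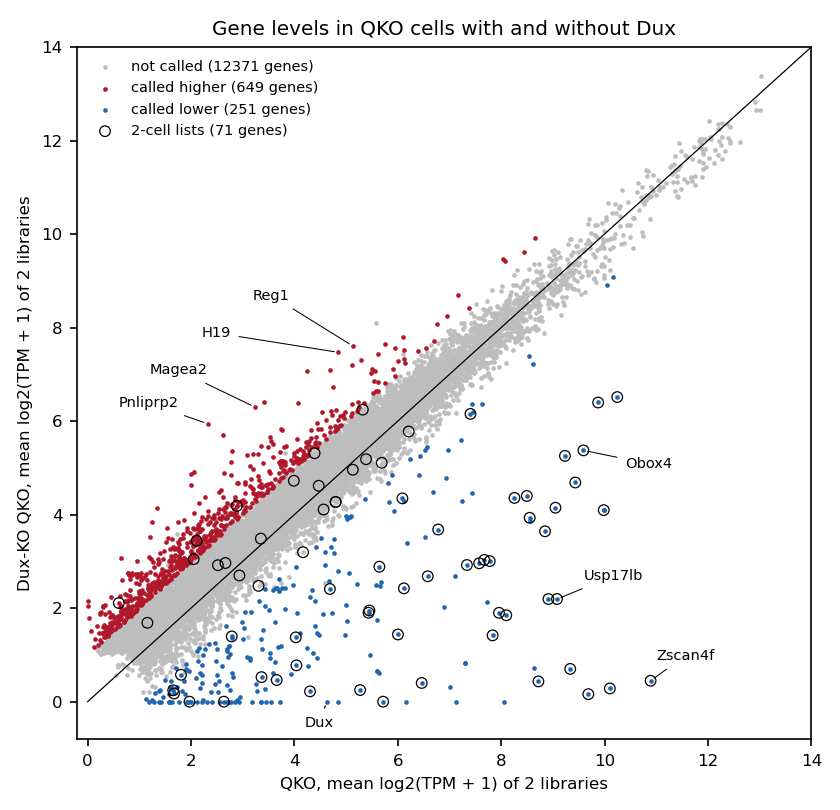
Mean log2(TPM + 1) of the 2 QKO libraries (x axis) and of the 2 Dux-KO QKO libraries (y axis) for the 13271 genes of the comparison, blue where called lower, red where called higher, grey where not called, with the 71 tested genes of the 2-cell lists ringed and the line of equal levels drawn. The blue genes reach from high QKO levels to the bottom of the plot (Zscan4f, Usp17lb), while the red genes stay closer to the line.

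The genes called lower made up 2.73% and 2.91% of all TPM in the QKO libraries. In the Dux-KO QKO libraries they made up 0.293% and 0.316%, and in control 0.335% and 0.348%. Of the 251, 36 were listed at 0 in both Dux-KO QKO libraries. Many belong to clusters of near-identical copies, among which reads may have been divided in ways not given in the sources used here: 10 of the 251 repeated the values of another row throughout, and 81 carried predicted or clone-based names. Levels of single copies within a family are therefore uncertain, and family sums are given beside them. These are values of whole cultures, in which fewer cells of a type and less RNA per cell cannot be told apart.

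The Zscan4 genes, which encode SCAN-domain zinc finger proteins of the 2-cell stage that act at telomeres, fell furthest. All 5 tested copies were called lower, with a median log2 fold change of -9.53 beside 0.23 for all genes. Zscan4f (chr7:11397915-11402318, GRCm38) was at 1890.5 and 1906 TPM in QKO, at 0.560 and 0.192 TPM in Dux-KO QKO and at a control mean of 35.3 TPM (log2 fold change -10.44 ± 0.14 SE, adjusted p = 2.4016e-16). Zscan4c was at 1101 and 1096 TPM in QKO and at 0 and 0.479 TPM in Dux-KO QKO. Neither gene's groups overlapped, as held for all 251 genes called lower. Summed over the 5 copies, the family gave 4856 and 4917 TPM in QKO, 2.14 and 1.42 TPM in Dux-KO QKO and 82.8 and 92.3 TPM in control. The Dux-KO QKO libraries thus lay below control for this family, and all 5 copies were called lower in Dux-KO QKO against control, where 3.94% of the genes were called lower and 17.5% higher.

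The Usp17-like genes encode deubiquitinases and also lie on chromosome 7. All 5 were called lower, with a median of -6.25. Usp17lb (chr7:104840257-104842603) fell from 542 and 538 TPM to 3.11 and 4.1 TPM, with a control mean of 0.823 TPM (log2 fold change -6.88 ± 0.12 SE). The family sum was 1556 and 1438 TPM in QKO, 35.2 and 31.8 TPM in Dux-KO QKO and 4.85 and 5.81 TPM in control. In contrast to Zscan4, this family stayed above control: 3 of the 5 genes were called higher in Dux-KO QKO than in control and none lower.

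The Eif1a-like predicted genes, which encode relatives of the translation initiation factor eIF1A, held the most RNA of the 2-cell families. All 12 genes of the list were called lower, with log2 fold changes from -6.72 to -3.48 and a median of -4.96. Gm21293, Gm21304 and Gm8764, described above, are not on this list or in its sum. Gm21293 has the same QKO and Dux-KO QKO values as the listed Gm6763. Their sum was 5738 and 6995 TPM in QKO, 258 and 286.5 TPM in Dux-KO QKO and 58.9 and 62.7 TPM in control. Gm5039 lay at one end, with 408 and 567 TPM in QKO and 3.49 and 3.67 TPM in Dux-KO QKO. Gm5662 (chr12:88270640-88274500) lay near the other, with 1008 and 1460 TPM in QKO and 86.8 and 94.1 TPM in Dux-KO QKO, against a control mean of 12.2 TPM. The groups did not overlap for either gene, as held for all 251 genes called lower.

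The Tcstv genes, a cluster of 2-cell transcripts on chromosome 13, were lower in all 4 members. Tcstv1 (chr13:119893388-119894785) fell from 188 and 219.7 TPM to 6.54 and 7.86 TPM (log2 fold change -4.64). Tcstv3 fell from 146 and 177 TPM to 6.06 and 7.15 TPM. Both stayed above their control means of 2.32 and 1.62 TPM in each Dux-KO QKO library.

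The Obox, Tdpoz and Pramel families each held members called lower and members not called. Obox4, an oocyte-type homeobox gene, fell from 842 and 706 TPM to 40.2 and 40.8 TPM, beside a control mean of 3.93 TPM (log2 fold change -4.22). Of 8 Obox genes 4 were tested. Obox3 and Obox2 were also called lower, at levels below 4 TPM in QKO, and Obox6 was not called (5.76 and 7.66 TPM in QKO, 6.48 and 4.64 TPM in Dux-KO QKO). Among the 5 Tdpoz genes, which encode TRAF and BTB domain proteins and share a cluster on chromosome 3, 3 were called lower. Tdpoz3 fell from 64.1 and 73.2 TPM to 6.3 and 2.94 TPM, whereas Tdpoz5 stood at 39.7 and 42.0 TPM in QKO and 35.8 and 34.9 TPM in Dux-KO QKO (log2 fold change -0.20, adjusted p = 0.324), against a control mean of 0.164 TPM. Tdpoz2 was not called (log2 fold change -0.83) but was called after scaling by median ratios (-1.01). Of 10 Pramel and Pramef genes tested 4 were called lower. Pramef25 fell from 199.8 and 179.9 TPM to 6.02 and 7.62 TPM, while Pramel7, a PRAME-like gene of the preimplantation embryo, had 37.6 and 40.5 TPM in QKO and 78.3 and 71.5 TPM in Dux-KO QKO (log2 fold change 0.92, not called). The difference between members of a family was not tested.

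Of 26 tested 2-cell genes listed as single-copy, 13 were called lower, 3 higher and 10 not called, with a median of -0.92. The list also holds related copies, among them Trim43a and Trim43b, whose single levels are uncertain. Arg2, the mitochondrial arginase, fell from 62.4 and 63.9 TPM to 2.06 and 1.40 TPM, close to its control mean of 1.39 TPM (log2 fold change -4.57 ± 0.14 SE). Tmem92, a transmembrane protein gene, fell from 18.8 and 18.7 TPM to 0.0845 and 0.251 TPM, below its control mean of 1.2 TPM. Zfp352, a zinc finger gene, fell from 111 and 107 TPM to 11.9 and 11.8 TPM, above its control mean of 0.549 TPM. Chit1, a chitinase, Spz1, a basic helix-loop-helix factor, and Lmx1a, a LIM homeobox factor, fell by 3.53, 3.26 and 3.19 on the log2 scale. Nelfa, a subunit of the negative elongation factor, fell less, from 191 and 149 TPM to 74.4 and 66.2 TPM, which is near its control mean of 74.6 TPM. Its 2 groups did not overlap.

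Several 2-cell genes that QKO cells express stayed high without Dux. The Duxbl genes, relatives of Dux, were not called: Duxbl2 and Duxbl3, which share one set of values, had 27.3 and 26.4 TPM in QKO and 17.3 and 19.3 TPM in Dux-KO QKO, against a control mean of 1.0 TPM. Cphx2, a homeobox gene, had 73.6 and 72.6 TPM in QKO and 56.2 and 51.6 TPM in Dux-KO QKO, against a control mean of 8.53 TPM. Ddit4l, an inhibitor of mTOR signalling, had 53 and 48.4 TPM against 36.3 and 30.9 TPM (log2 fold change -0.58, adjusted p = 0.0020138). The Trim43 genes rose: Trim43a went from 3.58 and 3.07 TPM to 10.9 and 8.91 TPM, and Trim43b rose by 1.51 on the log2 scale. The third gene of this list to rise was Zfp750, from 6.81 and 6.00 TPM to 18.6 and 15.9 TPM.

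Over the 8 lists of 2-cell genes together, 49 of 71 tested genes were called lower and 3 higher, beside 1.89% and 4.89% of all genes. Their summed level was 15683 and 16727 TPM in QKO, 1020 and 996 TPM in Dux-KO QKO and 288 and 302 TPM in control. Dux-KO QKO cells thus kept a summed level above control, and 45 of these 71 genes were called higher in Dux-KO QKO than in control, where 5 were called lower.

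**Figure D2:**
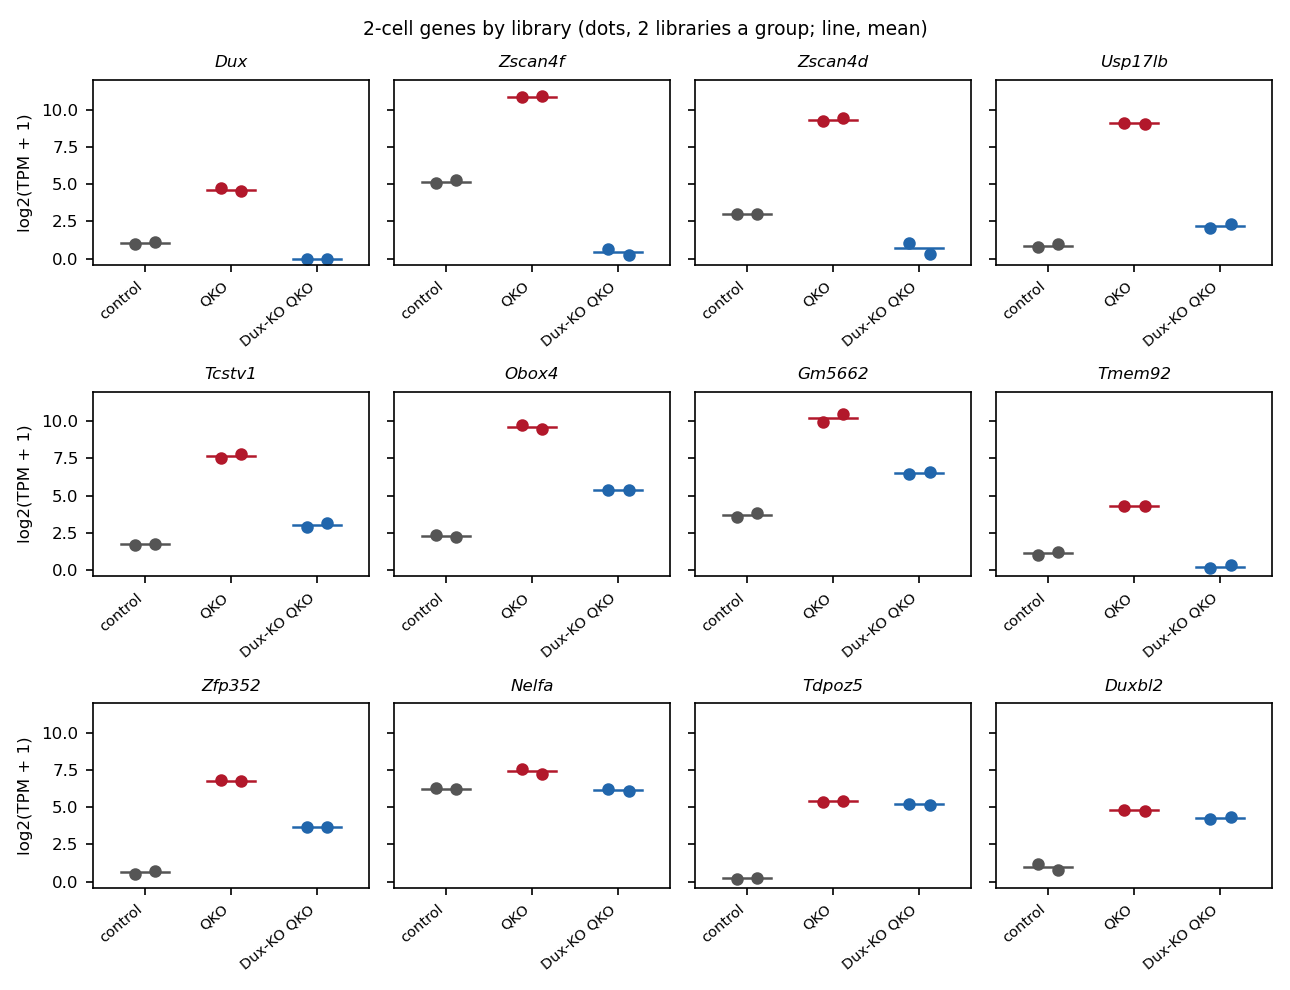
Level of 12 genes in each library, as log2(TPM + 1) on the y axis, for control (grey), QKO (red) and Dux-KO QKO (blue), with 2 dots a group and a line at the mean. Zscan4f, Zscan4d and Tmem92 fall below control without Dux, Obox4, Gm5662 and Zfp352 stop above it, and Tdpoz5 and Duxbl2 stay near their QKO level.

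Named by size of the fall alone, genes outside these families included Tmem132c, a transmembrane protein gene, which went from 51.6 and 43.7 TPM to 2.11 and 2.65 TPM. Among predicted genes, Gm428 (269 and 261 TPM in QKO) and Gm11758 (145 and 133 TPM) were listed at 0 in both Dux-KO QKO libraries. A430089I19Rik fell from 400.2 and 395 TPM to 0.662 and 0.656 TPM.

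Lists of factors that act on Dux and of silencing genes were read against the shares called over all genes. None of 20 factors known to act on Dux or 24 H3K9 methyltransferase, HP1 and silencing genes was called in either direction. Nor was any of 13 DNA methylation and demethylation genes or 12 subunits of the repressive complex PRC1.6. Over all genes 1.89% were called lower and 4.89% higher, so in lists this small none called is near the share. The medians of these lists were 0.07, -0.04, 0.39 and 0.04, beside 0.23 for all genes. Trim28, the corepressor KAP1, had 923 and 751 TPM in QKO and 1322 and 1222 TPM in Dux-KO QKO (log2 fold change 0.61, adjusted p = 0.00070318), a difference below the size limit. Among 38 germline genes tested, many of which QKO cells express far above control, 2 rose and 1 fell, shares near the 4.89% and 1.89% of all genes. Tex101, a germ cell surface protein, rose from 16.5 and 15.2 TPM to 85.4 and 80.7 TPM, Tdrd12, a factor of the piRNA pathway, rose from 14.7 and 15.3 TPM to 39.2 and 38.2 TPM, and Sycp1, a synaptonemal complex protein, fell from 30.9 and 34.8 TPM to 14.1 and 14.6 TPM. Rpl10l, a germ cell ribosomal protein gene, was at 285 and 286 TPM in QKO and 307 and 322 TPM in Dux-KO QKO, against a control mean of 25.8 TPM. The Akr1c genes were likewise not called: Akr1c21 had 406 and 465 TPM in QKO and 458 and 450 TPM in Dux-KO QKO, against a control mean of 0.948 TPM.

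**Figure D3:**
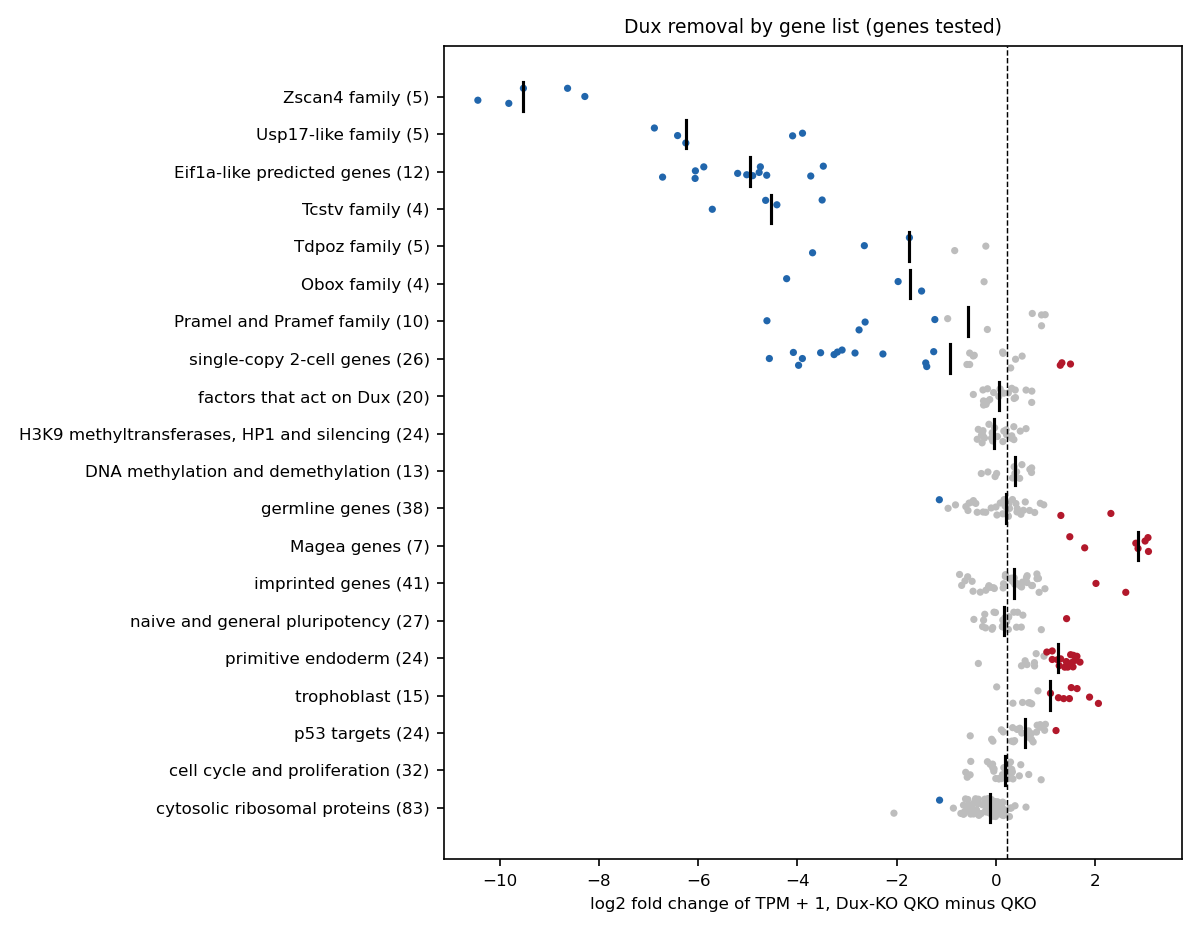
Log2 fold change of TPM + 1, Dux-KO QKO minus QKO (x axis), for each tested gene of 20 lists (rows, number of genes in brackets), blue where called lower, red where called higher and grey where not called, with a black bar at each list's median and a dashed line at the median of all genes, 0.23. The 2-cell families lie to the left and the Magea, primitive endoderm and trophoblast lists to the right. The lists of factors that act on Dux, of silencing genes and of DNA methylation genes lie around the dashed line.

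In the other direction, the genes called higher made up 0.750% and 0.607% of all TPM in QKO and 1.88% and 1.80% in Dux-KO QKO. In control they made up 0.449% and 0.422%. Of these 649 genes, 142 had a QKO mean below 1 TPM.

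The Magea genes, X-linked genes of the MAGE family that are normally expressed in germ cells, rose together. All 7 tested genes were called higher, with a median of 2.87. Over all genes 4.89% were called higher and the median was 0.23. Magea2 (chrX:155027201-155093666) rose from 6.59 and 10.7 TPM to 73.4 and 82.6 TPM, and was listed at 0 in both control libraries. Magea8 rose from 15.6 and 20.6 TPM to 132 and 135 TPM, and Magea5 from 9.40 and 9.86 TPM to 87.2 and 81.9 TPM. Magea4, which lies in another part of the X chromosome (chrX:72222017-72222964), rose least, from 3.54 and 5.49 TPM to 10.5 and 19.19 TPM. No Magea gene's groups overlapped, as held for 647 of the 649 genes called higher. The summed level was 42.7 and 56.3 TPM in QKO and 375 and 414 TPM in Dux-KO QKO. The Magea copies are similar in sequence, so single levels are uncertain.

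The largest single rise was that of Pnliprp2, a pancreatic lipase relative, from 3.84 and 4.18 TPM to 60.6 and 60.2 TPM, beside a control mean of 0.297 TPM (log2 fold change 3.62 ± 0.20 SE, adjusted p = 4.0911e-09). Reg1, a secreted lectin of the pancreas, rose from 31.7 and 36.5 TPM to 194 and 194 TPM. Rbp2, the intestinal retinol-binding protein, rose from 3.19 and 3.10 TPM to 25.4 and 33.1 TPM, and Fgfbp1, which binds fibroblast growth factors, from 24.4 and 25 TPM to 135 and 138 TPM. Each of these was already above control in both QKO libraries. Sct (secretin) and Psors1c2 were also among the largest rises, but their 2 QKO libraries differed widely: Sct had 3.12 and 0.356 TPM and Psors1c2 3.86 and 0.315 TPM.

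Among 41 imprinted genes 2 rose and none fell, a share of rises near the 4.89% of all genes. H19, a maternally expressed long non-coding RNA (chr7:142575529-142578143), rose from 29.3 and 26.5 TPM to 174 and 179 TPM, against a control mean of 2.81 TPM (log2 fold change 2.62 ± 0.11 SE). Cdkn1c, a maternally expressed inhibitor of cyclin-dependent kinases on the same chromosome, rose from 12 and 9.61 TPM to 44.3 and 49.0 TPM, against a control mean of 16.2 TPM. Gnas stood just under the limit at 0.99 and was called when QKO replicate 1 or Dux-KO QKO replicate 2 was left out. Without QKO replicate 1, 6 imprinted genes were called higher, in a setting in which 1000 of all genes were.

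Primitive endoderm genes, which mark the extraembryonic layer next to the epiblast, rose in 16 of 24 tested genes and fell in none, with a median of 1.26. The share called higher over all genes was 4.89% and their median 0.23. Among the transcription factors, Gata4 rose from 17.1 and 14.3 TPM to 52.8 and 43.4 TPM, Gata6 from 24.4 and 21.1 TPM to 47.9 and 54.6 TPM, and Sox7 from 5.61 and 6.11 TPM to 18 and 16.7 TPM. Among the basement membrane genes, Col4a2, a collagen IV chain, rose from 84.5 and 54.3 TPM to 227 and 217 TPM, and Lama1, a laminin chain, from 52.6 and 37.7 TPM to 142 and 133 TPM. The receptor gene Pdgfra rose from 22.8 and 18.3 TPM to 52.5 and 47.2 TPM. Apoe was not called, with QKO libraries at 2300.4 and 1461 TPM and Dux-KO QKO libraries at 2614 and 2635 TPM. The list's sum was 3621 and 2470 TPM in QKO, 5494.5 and 5383 TPM in Dux-KO QKO and 1703 and 1552 TPM in control.

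Trophoblast genes rose in 8 of 15 and fell in none (median 1.10), beside 4.89% of all genes called higher (median 0.23). The keratins of simple epithelia led: Krt8 rose from 22.4 and 19 TPM to 60.3 and 61.8 TPM, Krt18 from 13.4 and 12.5 TPM to 43.0 and 41.9 TPM, and Krt19 from 8.77 and 6.99 TPM to 30.5 and 33.0 TPM. The transcription factor genes Eomes and Tfap2c were not called. Eomes had 6.6 and 6.53 TPM in QKO and 6.92 and 6.40 TPM in Dux-KO QKO, and Tfap2c had a log2 fold change of 0.66. Of 16 genes of the primed epiblast and germ layers 3 were called higher, Foxa2, Hand1 and Sox17, all below 8 TPM in every library of both groups. Foxa2 and Sox17 are also endoderm genes. The part of cells of these lineages in the rises was not tested.

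Among markers of embryonic stem cells, 1 gene was called higher, where 4.89% of all genes were. Of 27 pluripotency genes 1 was called, Dppa3, a maternal and naive-state factor, which rose from 29.1 and 25.2 TPM to 72.5 and 76.5 TPM. Pou5f1 (Oct4) was at 2193 and 1996 TPM in QKO and 2303 and 2283 TPM in Dux-KO QKO. Of 6 defining fibroblast markers, Col3a1 was listed at 0 in all 4 libraries and Dcn stayed below 0.2 TPM. In the wider fibroblast list 2 of 6 tested genes were called higher, Loxl2, a collagen crosslinking enzyme (11.4 and 7.79 TPM in QKO, 32.3 and 34.4 TPM in Dux-KO QKO), and Lum, a matrix proteoglycan (1.27 and 0.768 TPM, and 6.73 and 4.44 TPM). The 6 defining markers summed to 4.75 and 3.32 TPM in QKO and 3.94 and 3.54 TPM in Dux-KO QKO. The 4 libraries held between 12541 and 13274 genes at 1 TPM or more. The mean log2 level of nuclear-retained and Snhg RNAs was 4.69 and 4.85 in QKO and 4.53 and 4.68 in Dux-KO QKO.

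Stress, immune and growth genes were read against the same 4.89% called higher over all genes. Of 24 p53 targets 1 was called higher (Bbc3, a pro-apoptotic gene, from 39.4 and 23.5 TPM to 72.1 and 71.9 TPM), and without QKO replicate 2 it was not called. None of 18 ATF4 targets or 32 cell cycle genes was called, and 2 of 20 interferon genes were higher, led by the peptide transporter Tap1 at 1.32. Of 13 matrix metalloproteinase genes 4 were called higher between 1.01 and 1.14, and none after scaling by median ratios or without QKO replicate 2. Mmp12 was at 83.4 and 80.8 TPM in QKO and at 90.2 and 90.2 TPM in Dux-KO QKO.

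The second table allowed the opposite change to be read in libraries that share none with the first. In the Dux-KO QKO line with a doxycycline-inducible Dux, the transgene's own row stood at 1.48 and 2.65 TPM without doxycycline and at 25.4 and 42.0 TPM with it. Levels from the 2 tables, which were deposited separately, have no common scale. Return of Dux raised 55 of 12325 genes (0.446%) and lowered 8 (0.0649%), with a median of -0.22 over all genes. The 55 include the transgene's own row. The count of rises was 91 in a fit of these 4 libraries alone. It was 35 without replicate 1 and 32 without replicate 2 of the uninduced libraries, and 33 without replicate 2 of the induced ones. In the Tet-on-Dux control line, doxycycline moved the transgene from 2.92 and 3.23 TPM to 29.0 and 29.4 TPM. It raised 26 of 12206 genes (0.213%) in this line, the transgene's row among them. None was called lower there by limma, where 627 genes had an unadjusted p below 0.05 and a lower level. In this line the mean log2 level of nuclear-retained and Snhg RNAs was 4.16 and 2.58 without doxycycline. With doxycycline it was 2.41 and 2.57, so the 2 uninduced libraries were unlike each other. Some genes with large changes were not called in this table: for Gm21293 the standard error of the log2 fold change was 0.78 here and 0.21 in the first table.

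Many of the genes that fell furthest without Dux were raised by its return. Of the 251 genes called lower, 219 could be tested in the return, and 53 of these were called higher (24.2%) and none lower, with a median of 1.07. Of the 46 with the largest falls, 45 were tested, all 45 had a higher level with Dux and 32 were called (71.1%). From the other side, 53 of the 54 testable genes raised by the return were among those lowered by removal. The exception, 7420426K07Rik, was below 2 TPM in every library of the first table. In the control line 22 genes rose by at least 2 on the log2 scale, the transgene's row among them. Of these, 21 could be tested and all 21 were called lower on removal, with a median of -5.58. Without replicate 1 of the induced control libraries this set shrank and 13 were called lower.

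Zscan4f went from 33.9 and 27.7 TPM to 1238 and 1362 TPM on return, and Obox4 from 69.5 and 72.4 TPM to 1038 and 1182 TPM. Usp17lb went from 120 and 97.4 TPM to 673 and 713 TPM. The groups did not overlap for any of the 3. Over the 8 lists of 2-cell genes the summed level went from 1799 and 1702 TPM to 11035 and 11983 TPM.

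Some genes that fell without Dux were not called on its return. The uninduced line already had some transgene RNA (1.48 and 2.65 TPM). A missing call therefore does not show that a gene fails to respond to Dux. Arg2 had 15.8 and 11 TPM without doxycycline and 22.7 and 18.4 TPM with it (log2 fold change 0.59, not called). Chit1 had 4.9 and 4.45 TPM and 5.93 and 9.68 TPM (0.60, not called). For others the change was large but not called in this table, such as Gm428 (2.6), Gm11758 (2.80), B020031M17Rik (2.80) and Gm6763 (2.97).

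**Figure D4:**
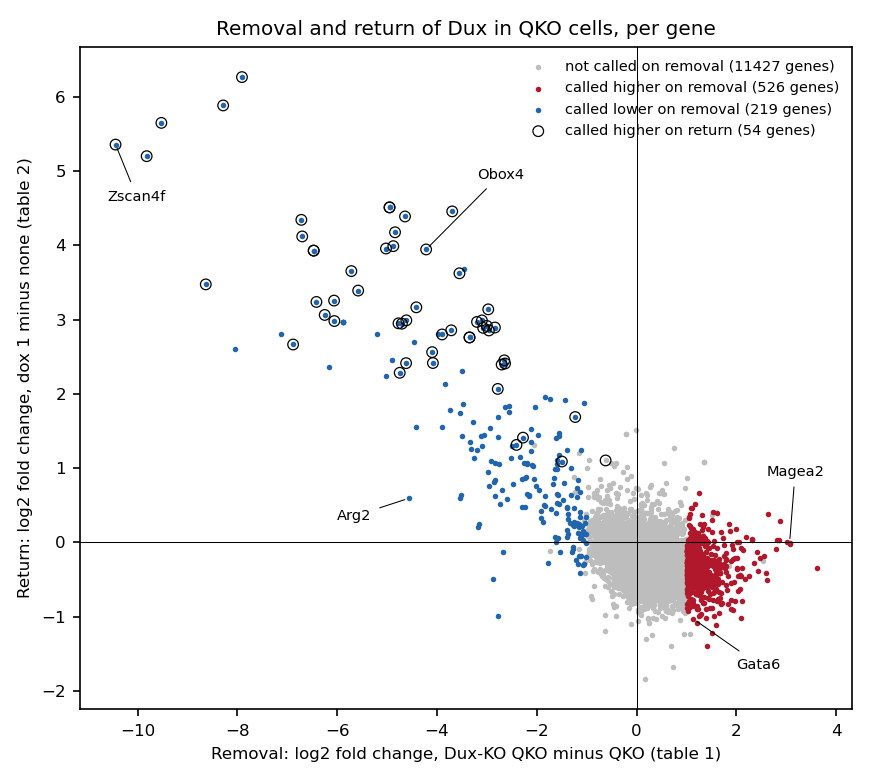
Log2 fold change on removal of Dux (x axis, first table, Dux-KO QKO minus QKO) and on its return (y axis, second table, doxycycline 1 minus none in the Tet-on QKO line) for each gene tested in both, blue where called lower and red where called higher on removal, ringed where called higher on return. The ringed genes lie at the upper left with 1 exception, Arg2 lies near 0 on the y axis, and most red genes lie below 0.

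Few genes of any kind were called lower on the return. Of the 649 genes raised by removal, 526 were tested there. Of these, 5 were called lower (0.951%, beside 0.0657% of all genes tested in both) and none higher. The median of the 526 was -0.36, beside -0.22 for all genes. From the other side, 5 of the 8 genes lowered by the return were called higher on removal. The 5 were Gata6, Sox7, Gdpd5, Ndrg1 and Slc6a9. Gata6 fell from 55.6 and 65.6 TPM to 25.6 and 32.9 TPM, and Sox7 from 9.89 and 14.1 TPM to 2.93 and 5.0 TPM. No gene was called lower on return after scaling by median ratios, and 16 were called with the replicate number as a block.

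None of the 7 Magea genes was called on the return. In the Tet-on QKO line their summed level was 473 and 464 TPM without doxycycline and 489 and 463 TPM with it, and in the Tet-on control line they were listed at 0 in all 4 libraries. Magea2 had 112 and 112 TPM without and 113 and 110 TPM with doxycycline. H19 had 347 and 224 TPM without and 219 and 174 TPM with it (-0.51, not called). Pnliprp2 had 9.78 and 10.1 TPM without and 6.67 and 8.67 TPM with doxycycline.

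**Figure D5:**
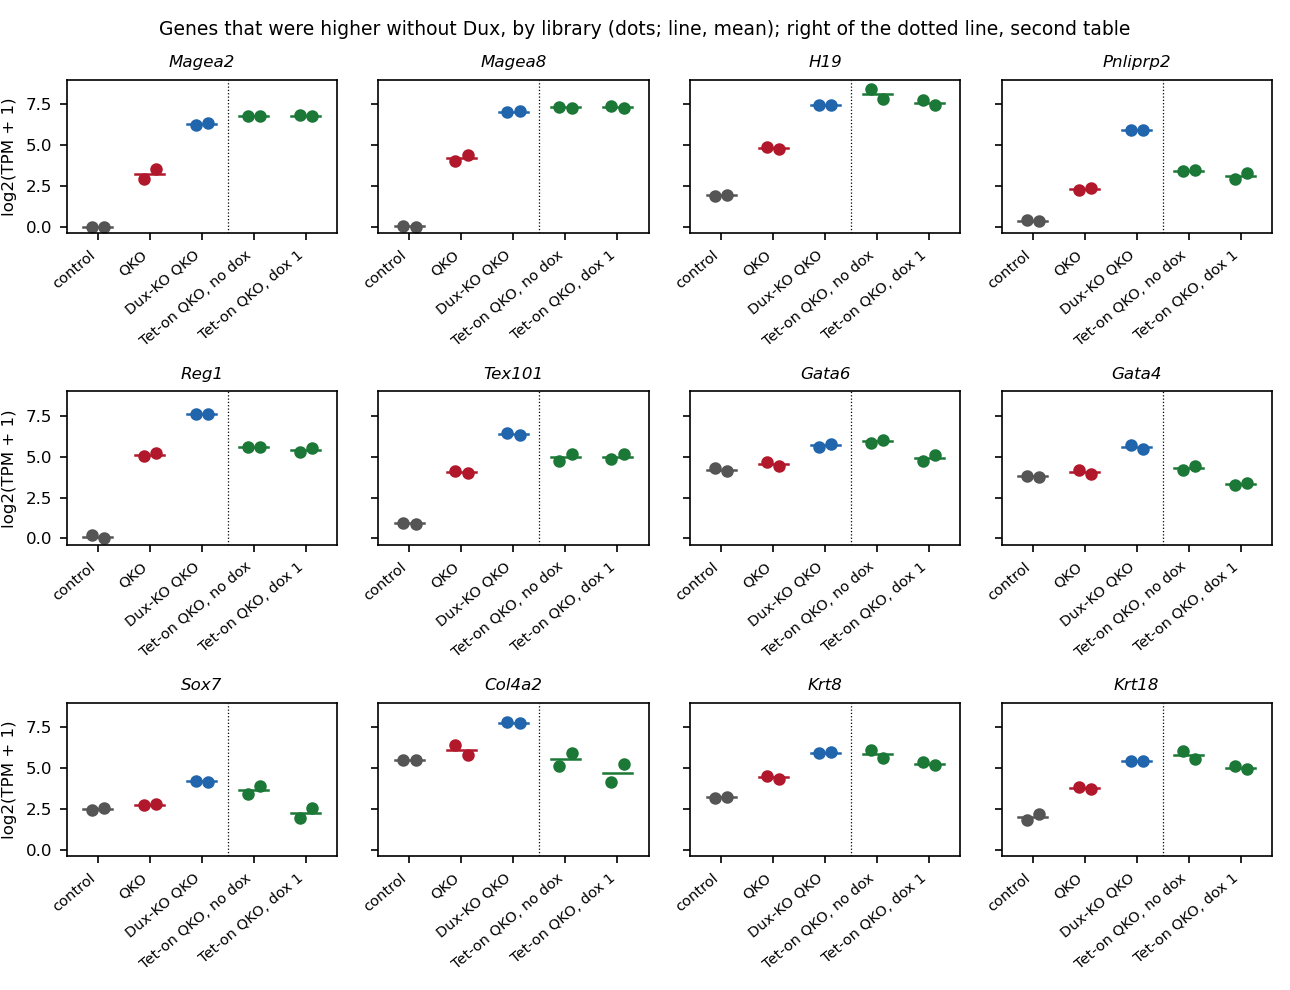
Level of 12 genes called higher on removal of Dux, as log2(TPM + 1) on the y axis, in each library of control (grey), QKO (red) and Dux-KO QKO (blue) and, right of the dotted line, of the Tet-on QKO line without and with doxycycline (green, second table), with 2 dots a group and a line at the mean. Magea2 and Magea8 are at one level in both green groups, while Gata6 and Sox7 are lower with doxycycline.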

How the data were processed

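Poly(A) RNA of TT2 mouse embryonic stem cells was sequenced, and gene levels were deposited by the authors as TPM in 2 tables. STAR 2.7.10b, Bowtie2 2.3.4.1, RSEM 1.3.1, SAMtools 1.9 and the build mm10 are listed, per the submitters' processing notes. Not stated there are what each tool did, which annotation was used and how multi-mapping reads were treated. TPM keeps no depth, so the depth of each library is unknown and no counting interval is given.

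Libraries were grouped by their labels. A gene was kept if 2 or more of the contrast's 4 libraries reached 1 TPM, and was fitted as log2(TPM + 1) with limma 3.58.1 in R 4.3.3 (mean trend in the prior variance), with the 18 libraries of the first table (9 groups) or the 32 of the second (16 groups) sharing one estimate of the spread. Fold changes are on this scale, which understates the change of low genes. Calls needed a Benjamini-Hochberg adjusted p below 0.05 over all genes tested and a log2 fold change of at least 1. Every p-value in the text comes from this limma fit. The fit was tested on simulated data.

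The members and gene lists were chosen with earlier results of these data known. Genes were named by size of the fold change among called genes with no overlap between groups (15 in each direction, at most 3 of a family, predicted names limited to 3), up to 5 called and 2 uncalled members of each list, the targeted genes and the neighbours of Dux. A few further genes, among them Esp24, Hist1h4i, Hist3h2a, 7420426K07Rik, Gdpd5, Ndrg1 and Slc6a9, were chosen after their values were seen. Alternatives were a pseudocount of 0.1, other filters, median-ratio scaling, a replicate block, the 4 libraries alone and leaving out each library.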

Additional observations from a re-analysis of the deposited data

How the results depend on the processing

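The count of genes lower after Dux removal, 251, stayed within 1.5 times under every alternative run, from 237 to 290 with 1 library left out and 332 after scaling by median ratios. The counts of the 2-cell, Magea, primitive endoderm and trophoblast lists did so too, and no named gene that was called changed direction. The count of higher genes, 649, was 1165 with a pseudocount of 0.1, 400 after scaling by median ratios and between 516 and 1000 with 1 library left out. Of 92 named genes that were called, 14 lost the call under at least 1 of 10 alternatives.

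On return of Dux, the 55 higher genes were 91 in a fit of the 4 libraries alone, 112 without the 6 libraries of that table with a high level of nuclear-retained RNA, and 32 to 38 with 1 library left out. The 8 lower genes were 36 with a pseudocount of 0.1, 2 without a filter on low values, 0 after scaling by median ratios, 3 in the 4 libraries alone, 17 without the 6 libraries and 2 to 10 with 1 left out. The 53 genes shared between removal and return were 87, 105 and 31 to 37 under the same settings of the return (33 and 31 without replicate 1 or 2 of the uninduced libraries, 32 without replicate 2 of the induced). In the control line the 26 higher genes were 40 after scaling by median ratios and 15 to 17 with 1 library left out, and the 21 of its induced genes that were lower after removal were 13 to 15 with 1 library of that line left out and 27 to 30 with a pseudocount of 0.1, median ratios, the replicate block or the 4 libraries alone in that line. The fits of the 4 libraries alone and without the 6 were chosen after seeing the data. The 6 include replicate 1 of the uninduced control line and no library of the return itself. The cause of these differences was not tested. Where 1 library is left out, the lone library is assumed to vary like the other groups.

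The labels do not say that replicate numbers pair libraries, and with 2 numbers the data cannot settle it. Deviations of same-numbered libraries had a correlation across genes of 0.042 for QKO and Dux-KO QKO, 0.449 for the return and 0.264 for the control line. With the replicate block 257 genes were lower and 651 higher after removal, 74 higher and 16 lower on return, and 32 higher in the control line.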

Other observations

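Some histone genes were lower without Dux. Most genes of this group are replication-dependent, encode histones made in S phase and have mRNAs without a poly(A) tail. The libraries were made from poly(A) RNA, so such mRNAs may be measured only in part. The group was chosen after its values were seen. Of 53 tested genes 20 were called lower and none higher, where 1.89% of all genes were called lower. The median log2 fold change was -0.996, beside 0.23 for all genes. The other 33 were not called, among them Hist3h2a, with 8.004 and 6.85 TPM in QKO and 16.3 and 13.5 TPM in Dux-KO QKO (log2 fold change 0.92). Hist1h4i had 108 and 95.7 TPM in QKO and 20.5 and 22.6 TPM in Dux-KO QKO, against a control mean of 33.7 TPM (log2 fold change -2.19). The summed level of the histone genes was 516 and 406 TPM in QKO, 254 and 285 TPM in Dux-KO QKO and 211 and 202 TPM in control. These 20 genes were most of the 33 called lower on chromosome 13. On return of Dux none of 48 tested histone genes was called by limma in either direction, with a median of 0.53.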
